A study of Homo sapiens with 6 samples.

Results

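The genes described here are KMT2A and the AFF1, AFF4 and MLLT3 genes, whose products are joined to KMT2A in leukemia fusions. The others are the histone methyltransferase gene DOT1L, the KMT2A cofactor gene MEN1, the BET genes BRD2 and BRD3, and the elongation kinase gene CDK9. All were chosen by name, and make up 9 of the 20033 protein-coding genes examined. The mark H3K27ac, an acetylated form of histone H3 found at active promoters and enhancers, was mapped by CUT&Tag, in which an antibody brings a transposase to the marked chromatin. The cells were Kasumi-1 and MV4-11, human acute myeloid leukemia (AML) lines, and each line gave 1 control library (NC) and 1 library after knockdown of ANP32B, a histone-binding nuclear protein (sh-ANP32B). They are called control and knockdown below, and values are given in that order within a line. The labels call the NC cells untreated, while the methods of the study describe a control hairpin (sh-NC) and stable lines selected with puromycin, so that both arms may carry a hairpin vector. The hairpin behind each sh-ANP32B library is not stated. The lists hold the position and width of each peak, with no height. The methods of the study describe merging of replicates before peaks were called, and there is 1 list per library. No value below thus has a replicate check and none was tested. Lower and higher describe these libraries only.

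KMT2A is a histone methyltransferase that keeps developmental and blood cell genes active. Chromosome breaks in leukemia join its first part to a partner, of which AFF1 and MLLT3 are among the most frequent. AFF1 and AFF4 are scaffolds of the super elongation complex, which brings P-TEFb, the kinase made of CDK9 and a cyclin T, to RNA polymerase II that has paused near the start of a gene. MLLT3 reads acetylated histones and binds either the AFF scaffolds or DOT1L, a histone methyltransferase that acts along transcribed genes. MEN1 encodes menin, which ties KMT2A and its fusions to chromatin. BRD2 and BRD3 belong to the BET proteins, which bind acetylated histones. MV4-11 cells carry a KMT2A::AFF1 fusion. Kasumi-1 cells carry RUNX1::RUNX1T1 instead and no fusion of KMT2A.

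Over chromosomes 1 to 22, X and Y the lists held between 22136 peaks (MV4-11 sh-ANP32B) and 24523 peaks (MV4-11 NC), and peaks covered between 23.004 Mb (MV4-11 sh-ANP32B) and 33.7 Mb (Kasumi-1 sh-ANP32B). Read totals were not given in the lists, so the depth of each library is unknown. Myeloid identity was checked on 8 marker genes. A promoter peak was present at 5 of them in each Kasumi-1 library, at 6 in MV4-11 control and at 4 in MV4-11 knockdown cells. The MPO gene, which encodes myeloperoxidase, had none in any library, and SPI1, which encodes the myeloid factor PU.1, had one in every library. None of the 4 T cell and 4 epithelial and liver markers had a promoter peak, while the B cell gene CD79A had one in every library. Of 4 erythroid markers 1 had a promoter peak in each library but MV4-11 knockdown. Loss of the ANP32B mRNA cannot be read from peaks of a histone mark, so the knockdown was not checked here.

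The promoter sequences of the genes where a peak at the start site appeared, disappeared or was interrupted are given before the values. KMT2A, MLLT3 and MEN1 are shown because their promoter peak was present in only 1 library of a line. BRD3 and CDK9 were added after their values were seen, since the stretch shown lay outside the peaks in some libraries. Each sequence runs from 250 bases before to 50 bases after the RefSeq start (GRCh38.p14), and was found for 8 of the 9 genes. Capitals mark any of 6 motifs searched on both strands, of which the GC box GGGCGG, the CCAAT box and the ETS motif GGAAGT were met in the stretches printed.
KMT2A, chr11:118436242-118436541, plus strand: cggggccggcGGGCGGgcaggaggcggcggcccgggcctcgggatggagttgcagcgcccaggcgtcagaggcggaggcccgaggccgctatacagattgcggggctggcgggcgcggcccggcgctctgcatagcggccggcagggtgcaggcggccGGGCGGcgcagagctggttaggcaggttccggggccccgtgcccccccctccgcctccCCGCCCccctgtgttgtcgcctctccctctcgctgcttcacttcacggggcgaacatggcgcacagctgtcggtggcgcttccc
MLLT3, chr9:20622450-20622749, minus strand: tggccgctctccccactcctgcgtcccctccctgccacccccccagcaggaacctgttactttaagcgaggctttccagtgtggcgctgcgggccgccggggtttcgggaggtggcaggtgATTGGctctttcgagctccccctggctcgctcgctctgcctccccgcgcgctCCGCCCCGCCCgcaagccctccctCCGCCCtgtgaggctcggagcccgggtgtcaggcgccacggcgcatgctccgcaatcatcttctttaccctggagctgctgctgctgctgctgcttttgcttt
MEN1, chr11:64810502-64810801, minus strand: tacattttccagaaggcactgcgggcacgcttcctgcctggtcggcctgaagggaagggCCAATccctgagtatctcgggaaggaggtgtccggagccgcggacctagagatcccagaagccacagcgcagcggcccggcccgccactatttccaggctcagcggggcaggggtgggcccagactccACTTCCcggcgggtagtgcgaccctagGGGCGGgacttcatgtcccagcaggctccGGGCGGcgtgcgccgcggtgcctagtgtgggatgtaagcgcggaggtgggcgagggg
BRD3, chr9:134067977-134068276, minus strand: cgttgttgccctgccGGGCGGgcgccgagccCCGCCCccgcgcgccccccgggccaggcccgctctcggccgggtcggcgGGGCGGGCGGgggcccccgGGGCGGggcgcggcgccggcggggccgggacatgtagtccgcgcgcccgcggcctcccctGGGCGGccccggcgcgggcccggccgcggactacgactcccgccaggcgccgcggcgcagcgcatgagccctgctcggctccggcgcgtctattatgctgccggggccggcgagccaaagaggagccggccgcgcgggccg
CDK9, chr9:127785784-127786083, plus strand: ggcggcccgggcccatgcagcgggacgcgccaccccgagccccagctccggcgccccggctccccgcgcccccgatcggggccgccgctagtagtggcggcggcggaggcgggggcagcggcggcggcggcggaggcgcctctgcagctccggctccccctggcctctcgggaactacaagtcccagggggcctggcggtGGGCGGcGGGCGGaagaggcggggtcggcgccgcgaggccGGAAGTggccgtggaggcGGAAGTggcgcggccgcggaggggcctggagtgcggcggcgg

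The BRD3 stretch had 85.0% G and C and 56 CG pairs, and the CDK9 stretch 82.0% and 46. Among 35116 RefSeq promoters of the same length, the median was 58.7% G and C and 14 CG pairs, so that these promoters lay at percentiles 99.8 and 98.9 of GC content. KMT2A had 76.3% and 36 CG pairs, and AFF1, not shown, 77.7% and 42. MLLT3 and MEN1 each had 68.0%, with 24 and 25 CG pairs. A further RefSeq promoter of MEN1, not shown, whose start lay 135 bases before the canonical one, had 58.3% and 20 CG pairs. It held no GC box and no ETS motif. The GC box occurred 6 times in the BRD3 stretch and 3 times in those of KMT2A and MLLT3, overlapping matches counted separately, and 45.0% of all promoters held it at least once. The ETS motif occurred 2 times at CDK9 and 1 time at MEN1, and in 22.8% of all promoters. A CCAAT box was present at MLLT3 and MEN1 and in 34.6% of all promoters. The TATA box TATAAA (11.5% of all promoters), the E-box CACGTG (7.26%) and the RUNX motif TGTGGT (13.1%) had no match in the stretches printed.

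For each gene the promoter window reached 2500 bases to each side of the canonical start, and bases under peaks were counted in it. At KMT2A (chromosome 11, 118436456 to 118526832, plus strand, 36 exons) the count was 3545 bases in control and 3584 in knockdown Kasumi-1 cells, and 576 and 0 bases in MV4-11. The Kasumi-1 libraries thus differed by 39 bases, and the MV4-11 peak was absent after knockdown. With only peaks of at least 1000 bases, neither MV4-11 library had a peak at KMT2A. In Kasumi-1 control cells the peak ran from 1874 bases before to 1670 bases after the start. The MV4-11 NC peak, 118436157 to 118436732, ran from 335 bases before to 240 bases after it, covered all 300 bases of the sequence shown above and was at percentile 31.9 of the widths in its list. No other peak lay in KMT2A or within 10 kb of it in any library, and the nearest MV4-11 sh-ANP32B peak was 34135 bases from the MV4-11 NC peak. Among all genes with a promoter peak, KMT2A was at percentile 94.5 of promoter bases in Kasumi-1 control and at percentile 21.2 in MV4-11 control cells.

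**Figure D1:**
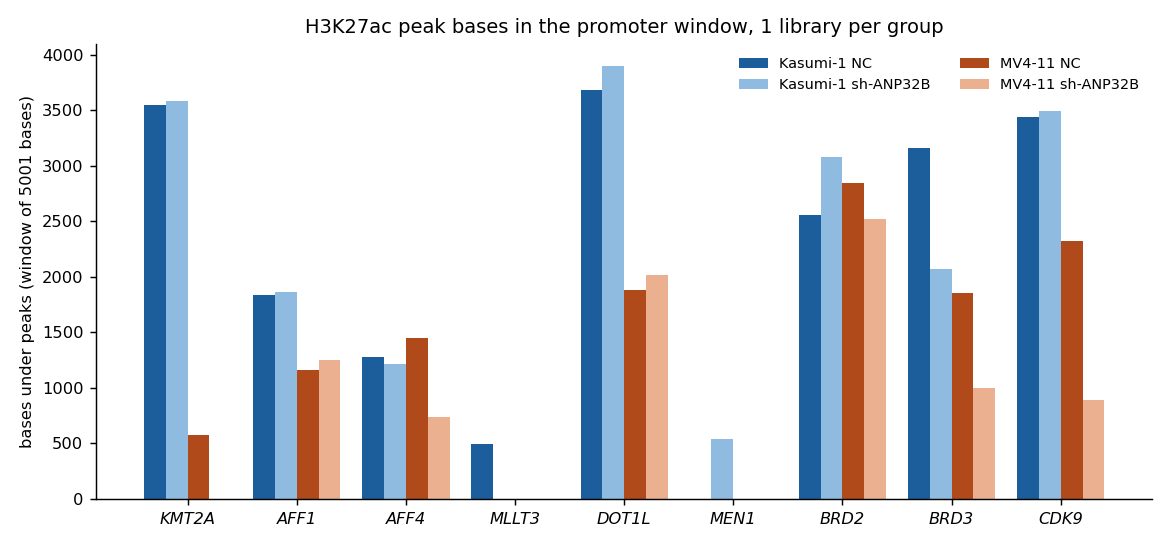
Bases under H3K27ac peaks (vertical axis) in the promoter window of each gene (horizontal axis), with 1 bar per library and 1 library per group, so there are no error bars. KMT2A stands at 3545 and 3584 bases in the Kasumi-1 libraries against 576 and 0 in the MV4-11 libraries, while MLLT3 and MEN1 have a bar in 1 library each.

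The fusion partner genes differed among themselves. AFF1 (chromosome 4, 86935002 to 87141039, plus strand) had 1834 and 1865 bases in Kasumi-1, and 1163 and 1249 in MV4-11. Among the promoters with a peak, the AFF1 difference was the smallest in each line. In MV4-11 NC the start of AFF1 was covered by a peak of 558 bases, with a peak of 605 bases further into intron 1, and after knockdown these measured 953 and 296 bases. The small AFF1 differences changed sign with the window: -45 bases in Kasumi-1 with 1000 bases to each side, and -681 bases in MV4-11 when every annotated start was used.

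AFF4 (chromosome 5, 132875395 to 132963634, minus strand) had 1275 and 1212 bases in Kasumi-1, and 1448 and 735 in MV4-11. The upstream edge of the MV4-11 peak was nearly the same in both libraries, 256 and 254 bases before the start. Its downstream edge was 1191 bases past the start in NC and 480 bases past it after knockdown, so that the peaks differed on the side inside the gene. MLLT3 (chromosome 9, 20341669 to 20622499, minus strand) had 497 bases in Kasumi-1 control cells and 0 in the other libraries. That peak, 20622095 to 20622591, was at percentile 17.97 of widths in its list and covered 142 of the 300 bases shown. With only peaks of at least 1000 bases no library had a peak at MLLT3.

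DOT1L (chromosome 19, 2163933 to 2232578, plus strand) had 3682 and 3901 bases in Kasumi-1, and 1880 and 2013 in MV4-11. The Kasumi-1 peaks were broad, with 6871 bases in control and 7029 bases in knockdown cells, each at percentile 99.1 of the widths in its list. In MV4-11 NC a peak of 1880 bases covered the start, and after knockdown peaks of 1139 and 874 bases lay in its place. The MV4-11 difference of 133 bases became -284 with 1000 bases to each side, and -741 with only peaks of at least 1000 bases. MEN1 (chromosome 11, 64803510 to 64811294, minus strand) had 0 and 538 bases in Kasumi-1, and none in MV4-11. The Kasumi-1 knockdown peak, 64810494 to 64811031, held all 300 bases of the MEN1 stretch and ranked at percentile 23.2 by width. MLLT3 and MEN1 thus showed H3K27ac at the start in 1 of 4 libraries each, with narrow peaks in both cases.

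The BET genes had promoter peaks in every library. BRD2 (chromosome 6, 32968594 to 32981505, plus strand) had 2558 and 3082 bases in Kasumi-1, and 2841 and 2521 in MV4-11. Most of this lay inside the gene, since all 2500 bases of the window past the start were covered in every library. The libraries differed only before the start, with 57 and 581 bases in Kasumi-1, and with 340 and 20 bases in MV4-11. BRD2 lies in the MHC region, of which hg38 holds alternate versions. The gene with 10 kb to each side, 32912 bases, aligned to 4 alternate sequences of chromosome 6, each with a BRD2 peak in every library. Only alternate sequences with a peak somewhere in any of the lists were searched, so their number depends on the peaks. On GL000254v2 only 21107 bases aligned. Over the aligned stretches bases under peaks after knockdown were lower on 3 and higher on 1 in each line. On chromosome 6 the gene plus 10 kb had 4083 and 4699 bases in Kasumi-1, and this higher value after knockdown was not met on most of the alternate sequences. How reads were divided among the versions is not known.

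BRD3 (chromosome 9, 134030305 to 134068535, minus strand) had 3157 and 2071 bases in Kasumi-1, and 1857 and 999 in MV4-11. The control library was the higher of the pair in each line. Only in Kasumi-1 NC did a peak cover the start, from 656 bases before it to 2605 bases past it. In Kasumi-1 knockdown cells the peak began 430 bases past the start, and in MV4-11 the nearest peak began 475 bases past it in control and 584 bases past it in knockdown cells, so that the GC-rich stretch printed above was covered in full in the first library and had 0 covered bases in the other 3. The 1086 bases found in Kasumi-1 NC and not after knockdown had 82.0% G and C, against 59.2% in the 2071 bases found in both. In MV4-11 the order was the opposite, with 54.8% in the 858 bases of the control alone and 62.5% in the 999 bases of both.

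CDK9 (chromosome 9, 127785679 to 127790792, plus strand) had 3443 and 3493 bases in Kasumi-1, and 2319 and 893 in MV4-11. The MV4-11 difference of -1426 bases was the largest among the 9 promoters. In Kasumi-1 NC a single peak of 4682 bases ran from 3739 bases before to 942 bases past the start. MV4-11 NC had 3 shorter peaks there: 1695 bases far upstream, 953 bases that ended 341 bases before the start (127784741 to 127785693), and 478 bases that began 59 bases past it. Only the upstream peak had a counterpart after knockdown, of 1669 bases, and it ended 1608 bases before the start. The CDK9 stretch shown above had 0 covered bases in both MV4-11 libraries. It lay between the nearer peaks in the control. With only peaks of at least 1000 bases the nearer peaks of MV4-11 NC were left out, and the CDK9 difference became 5 bases.

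**Figure D2:**
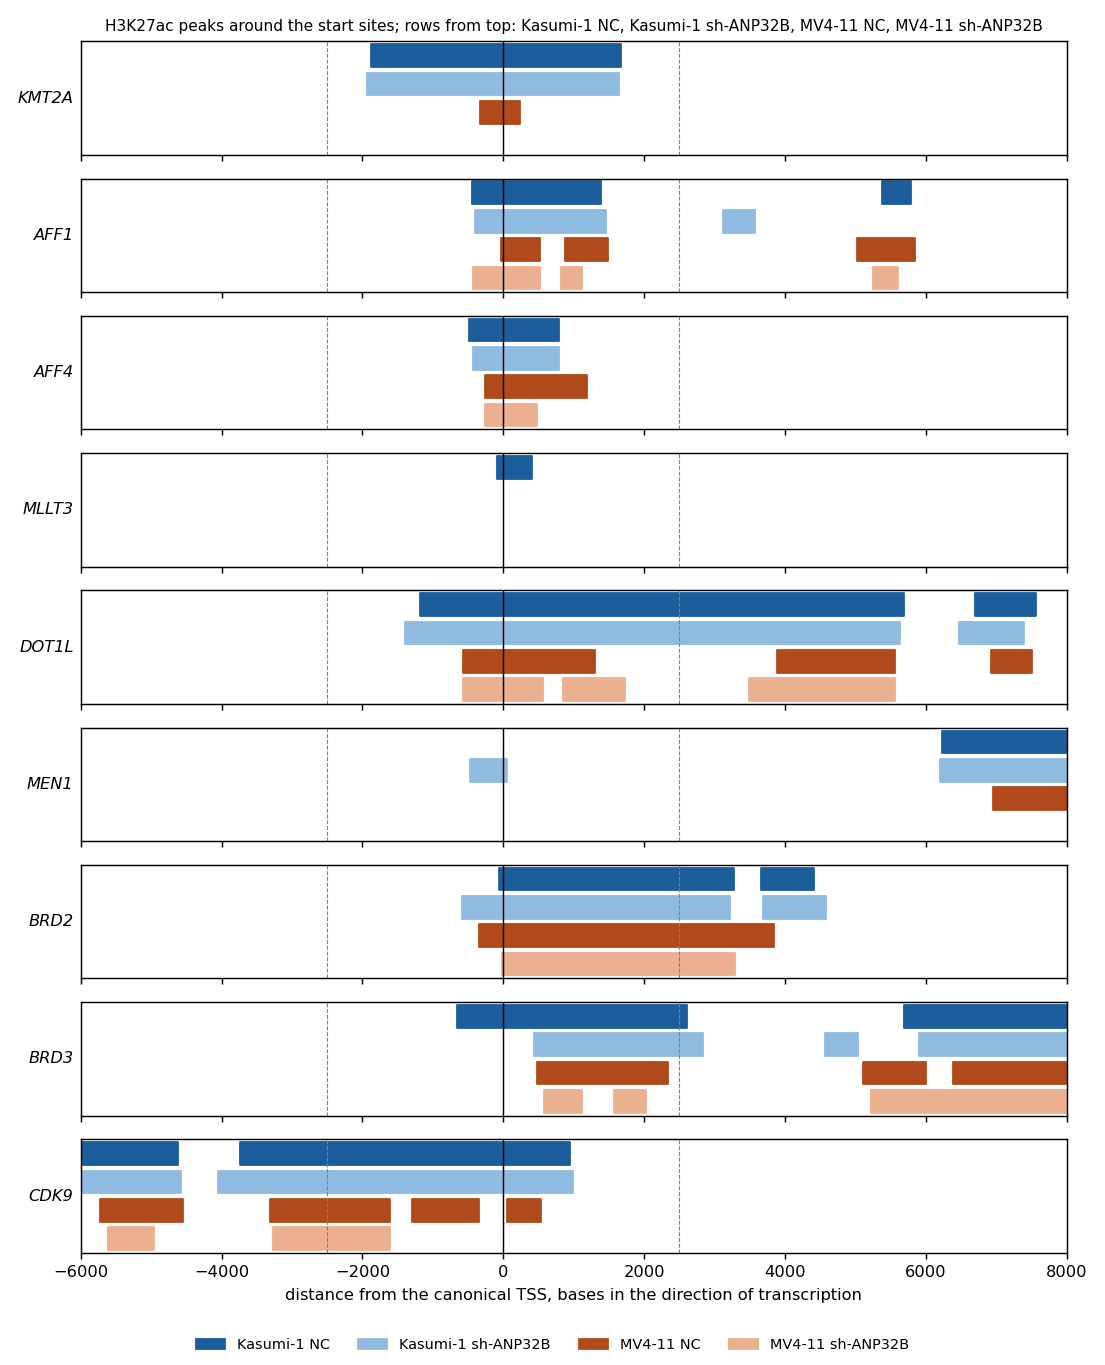
H3K27ac peaks (coloured bars) around the canonical start of each gene, drawn by distance in bases in the direction of transcription and beyond the window on both sides, with 1 row per library in the order Kasumi-1 NC, Kasumi-1 sh-ANP32B, MV4-11 NC and MV4-11 sh-ANP32B. Dashed lines mark the window of 2500 bases to each side. The KMT2A row of MV4-11 sh-ANP32B is empty, and the BRD3 peaks of 3 libraries begin after the start.

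Counted together, promoter peaks were found at 8 of the 9 genes in each Kasumi-1 library, where 47.7% (control) and 45.3% (knockdown) of all protein-coding genes had one. In MV4-11 there were 7 and 6, against 35.8% and 28.6% of all genes. The start itself was under a peak at 8 and 7 genes in Kasumi-1, and at 5 and 4 in MV4-11, where 41.3%, 35.2%, 23.8% and 16.5% of all genes had one there. Summed over the 9, the windows held more bases after the start than before it in each library. The sums went from 12688 against 7295 in Kasumi-1 NC to 6233 against 2173 in MV4-11 sh-ANP32B. CDK9 went the other way in every library, with 942 after and 2500 before the start in Kasumi-1 NC. KMT2A and MEN1 did so wherever they had a promoter peak. The same split is not given here for all genes, so it cannot be called a trait of the 9.

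After knockdown in Kasumi-1, promoter bases were lower at 3 of the 9 genes (AFF4, MLLT3 and BRD3) and higher at 6, where 49.9% of all 9721 genes with a promoter peak in either library were lower and 48.9% higher. A difference of at least 1.5-fold, lost and gained peaks included, was met at 2 genes in the lower direction, BRD3 and MLLT3 (14.6% of all genes), and at 1 in the higher, MEN1 (4.89%). The median ratio of sh-ANP32B to NC was 1.01 over the 7 genes with a peak in both libraries and 1.003 over all genes. Of the 8 genes with a Kasumi-1 NC promoter peak, 1 (MLLT3) lost it, beside 6.84% of all such genes, and MEN1 gained one, beside 1.61% of the genes without an NC peak. Apart from BRD3, MLLT3, MEN1 and BRD2, the ratios lay between 0.951 (AFF4) and 1.06 (DOT1L).

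In MV4-11, promoter bases were lower at 5 of the 7 genes with a peak in either library and higher at 2 (AFF1 and DOT1L), where 78.1% of all 7482 such genes were lower and 21.5% higher. The count is near the background share. Ratios were 0.385 at CDK9, 0.508 at AFF4, 0.538 at BRD3, 0.887 at BRD2, 1.07 at DOT1L and 1.07 at AFF1. Their median was 0.691, against 0.828 over all 5419 genes with a peak in both libraries, and 3 of the 6 lay below that median. CDK9 was at percentile 6.94 of these ratios, AFF4 at 14.9 and BRD3 at 17.2, whereas AFF1 and DOT1L were at 83.2 and 83.0. At least 1.5-fold lower or lost were 4 of the 7 genes (CDK9, AFF4, BRD3 and KMT2A), beside 45.0% of all genes, and 0 were as much higher, beside 7.28%. With 1000 bases to each side, BRD3 had 526 and 417 bases in MV4-11 and no longer passed 1.5-fold (ratio 0.793), AFF1 was higher by more than that (684 and 1128 bases, ratio 1.65), and no CDK9 peak was left after knockdown. The loss at KMT2A was 1 of 7, beside 24.4% of all genes with a promoter peak in the MV4-11 control, and neither MLLT3 nor MEN1 gained one, beside 2.45% of the genes without.

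The bases that differed were compared in GC content. At KMT2A the 576 bases lost in MV4-11 had 79.2% G and C, where the whole window had 59.4%. The 1431 CDK9 bases found in MV4-11 NC alone had 70.8%, against 53.6% in the 888 bases of both libraries. BRD2 also had a higher share in the bases of the control alone, 71.6% against 61.6%. At AFF4 the reverse held, with 44.7% in the 713 bases of NC alone and 74.97% in the 735 bases kept. AFF1 (49.2% against 68.4%), DOT1L (63.7% against 68.4%) and BRD3 (given above) were lower in the bases of the control alone as well. The bases covered only in the MV4-11 control thus had no common direction in GC content among these genes, and at KMT2A none was kept for comparison. The part of GC content in these differences was not tested.

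Peaks were next counted over each gene from start to end with 10 kb to each side, as bases per kb of that stretch. A peak was found there at 9 genes in control and 8 in knockdown Kasumi-1 cells, and at 8 and 7 in MV4-11, where 61.5%, 60.2%, 55.4% and 49.4% of all genes had one. CDK9 had the highest density by this measure, with 402 and 420.2 bases per kb in Kasumi-1, and 235 and 135 in MV4-11. Much of this lay upstream, as in the Kasumi-1 control peak of 5404 bases (127776014 to 127781417) near the start of SH2D3C, a neighbouring gene. The flanks weigh most in short genes, and CDK9 has 5114 bases without them and 25114 with them. With no flank, 1298 and 1348 bases were covered in CDK9 in Kasumi-1, and 493 and 0 in MV4-11. BRD2, with 12912 bases, then had 4026 and 4118, and 3841 and 3294. MLLT3, the longest gene with 281 kb, was lowest, with 1.65 bases per kb in Kasumi-1 control cells and 0 in the other libraries. KMT2A had 32.1 and 32.5 bases per kb in Kasumi-1, and 5.22 and 0 in MV4-11, all of it at the promoter.

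BRD2 had 124 and 143 bases per kb in Kasumi-1, and 127 and 101 in MV4-11. For BRD3 the values were 126 and 116, and 102 and 89.0. DOT1L had 155 in each Kasumi-1 library, and 115.1 and 82.7 in MV4-11. The lines overlapped at BRD2, whereas BRD3 and DOT1L had higher densities in both Kasumi-1 libraries than in either MV4-11 library. MEN1 had 167 and 203 bases per kb in Kasumi-1, and 106 and 32.9 in MV4-11. Its main peak lay mostly past the end of the gene, next to the start of MAP4K2, with 4123 bases in Kasumi-1 control (64800203 to 64804325), 2945 in MV4-11 control and 913 in MV4-11 knockdown cells. Likewise AFF4 had a peak past its end near the starts of GDF9 and UQCRQ, of 488 and 991 bases in Kasumi-1, and 374 and 355 in MV4-11, and DOT1L one near PLEKHJ1 and SF3A2, of 3382 bases in Kasumi-1 control cells. Peaks at these neighbours, and those near SH2D3C, cannot be assigned to MEN1, AFF4, DOT1L or CDK9 from position alone.

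**Figure D3:**
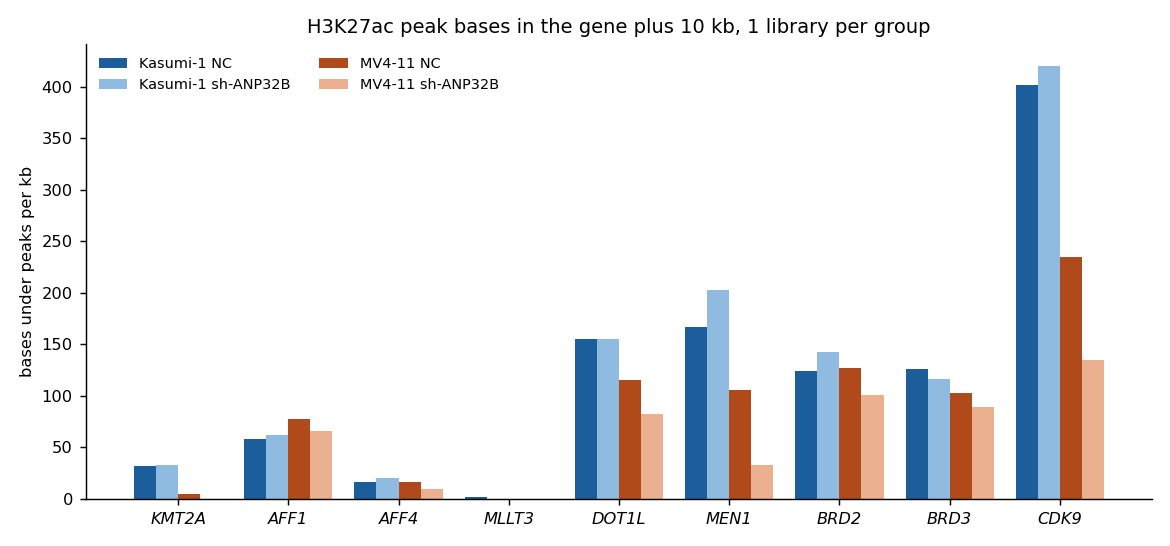
Bases under H3K27ac peaks per kb (vertical axis) over each gene with 10 kb to each side (horizontal axis), with 1 bar per library and 1 library per group. MV4-11 sh-ANP32B is below MV4-11 NC at the 8 genes with a peak in MV4-11, as at CDK9 (135 against 235) and BRD3 (89.0 against 102), and KMT2A goes from 5.22 to 0.

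In MV4-11, bases over the gene plus 10 kb were lower after knockdown at 8 of the 8 genes with a peak, where 75.3% of all 11526 genes with a peak in either library were lower and 24.6% higher. At least 1.5-fold lower or lost were 4 (AFF4, CDK9, MEN1 and KMT2A), beside 40.5% of all genes, and 0 were as much higher, beside 8.29%. The ratios of the 7 genes with peaks in both libraries had a median of 0.719, against 0.810 over all genes, and ranged from 0.310 at MEN1 to 0.869 at BRD3. The MEN1 value rests on the peak near MAP4K2, and with no flank only 83 and 0 bases lay in MEN1. With 50 kb to each side the CDK9 difference of -2504 bases became -18. In Kasumi-1, 6 of 9 genes were higher, beside 53.7% of all genes, and 3 lower, beside 46.0%. A difference of at least 1.5-fold was met at 1 gene in the lower direction (MLLT3, lost), beside 9.95%, and at 0 in the higher, beside 5.98%. The Kasumi-1 ratios ranged from 0.925 at BRD3 to 1.25 at AFF4, with a median of 1.05 against 1.01 over all genes. Both ends turned with the processing: AFF4, whose promoter was 63 bases lower and whose peak near GDF9 was wider, went from 440 to -7 bases with no flank, and BRD3 from -553 to 313 when peaks at most 1000 bases apart were joined. Summed over the 9 genes, peaks covered 58918 and 61230 bases in Kasumi-1, and 49141 and 36216 in MV4-11.

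AFF1 held the largest number of peaks, 15 and 17 of them in Kasumi-1 against 15 and 16 in MV4-11. Most of them lay in intron 2, between 20 and 50 kb past the start, where 9 and 11 Kasumi-1 peaks covered 6917 and 7701 bases, and 8 and 9 MV4-11 peaks covered 12781 and 11208. More of the stretch was thus covered in both MV4-11 libraries than in either Kasumi-1 library. The widest of them had 3987 bases in MV4-11 NC (86959146 to 86963132) and 3910 after knockdown, above 97.7% and 98.2% of the widths in their lists, while the widest Kasumi-1 NC peak of this stretch had 1420 bases. Over the whole of AFF1 plus 10 kb, 13198 and 14036 bases were covered in Kasumi-1, and 17564 and 14998 in MV4-11. A further RefSeq promoter of AFF1, 72.3 kb past the canonical start, was covered over its 300 bases in the Kasumi-1 libraries and MV4-11 NC and over 140 bases in MV4-11 sh-ANP32B. The farthest peak of any library ended 112 kb past the start of the gene, which is 206 kb long.

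**Figure D4:**
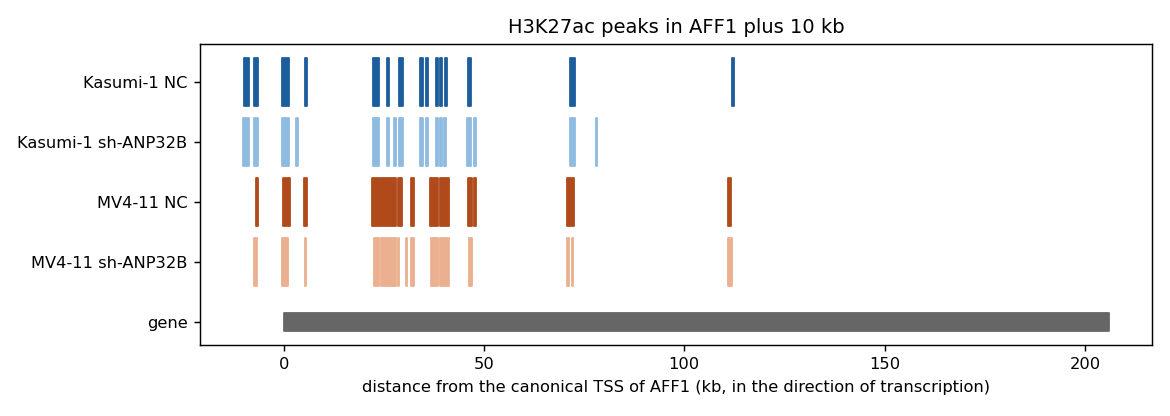
H3K27ac peaks (coloured bars) over AFF1 and 10 kb to each side, by distance from the canonical start in kb, with 1 row per library and the gene as a grey bar. The peaks crowd between 20 and 50 kb, where 12781 bases are covered in MV4-11 NC and 6917 in Kasumi-1 NC, and the farthest peak ends at 112 kb.

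Peaks were also matched one by one between the libraries of a line, and counted as shared with 1 base or more in common. Of the 32 Kasumi-1 NC peaks in the genes plus 10 kb, 3 had no counterpart after knockdown (9.03% of all such peaks in protein-coding genes), and 6 of 35 Kasumi-1 sh-ANP32B peaks were gained (12.5%). The widest lost Kasumi-1 peak lay at exon 4 of AFF1 (87046911 to 87047509, 599 bases) and the widest gained one was that at the MEN1 start. In MV4-11, 9 of 39 NC peaks were lost (29.5% of all such peaks) and 1 of 35 sh-ANP32B peaks was gained (16.7%), in AFF1 intron 2 (86965448 to 86965784, 337 bases). The lost MV4-11 peaks were at CDK9 (3), DOT1L (3), KMT2A (1), AFF1 (1) and past the end of BRD3 near BRD3OS (1), and the widest was the CDK9 peak of 953 bases, which had a sh-ANP32B peak 315 bases away. Further, 4 of the 39 MV4-11 NC peaks were matched by more than 1 sh-ANP32B peak (5.04% of all such peaks), among them the peak of 2355 bases in DOT1L intron 3 (2186781 to 2189135), in whose place 3 peaks of 470, 575 and 514 bases lay. Of the 32 Kasumi-1 NC peaks, 0 were split in this way (3.07% of all such peaks).

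The overlap of covered bases (Jaccard index, shared bases over bases of either library) in the 9 genes plus 10 kb was 0.833 between the Kasumi-1 libraries and 0.637 between the MV4-11 libraries, where all protein-coding genes together gave 0.785 and 0.580. Between the lines it was 0.484 for NC and 0.344 for sh-ANP32B, beside 0.408 and 0.333. Within Kasumi-1 the index was highest at KMT2A (0.974) and CDK9 (0.956), and within MV4-11 at BRD2 (0.793). The lowest values above 0 were 0.725 in Kasumi-1 (AFF1) and 0.310 in MV4-11 (MEN1).

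The NC libraries were compared between the line with a KMT2A::AFF1 fusion and the line without one. Promoter bases were higher in MV4-11 NC at 2 genes (AFF4 and BRD2) and lower at 6 of the 8 with a promoter peak in either library, where 16.0% of all 9833 genes were higher and 83.9% lower. The median ratio of MV4-11 NC to Kasumi-1 NC was 0.634 over 7 genes and 0.670 over all genes. Lower by at least 1.5-fold or lost were 5, beside 61.9% of all genes, and 0 were as much higher, beside 5.87%. The promoter peak of MLLT3 was the 1 of 8 absent in the MV4-11 control, beside 27.9%, and MEN1 did not gain one, beside 2.68%. KMT2A had the lowest ratio, 0.162, at percentile 2.21 of all genes, and AFF4 the highest, 1.14, at percentile 87.8. Over the gene plus 10 kb, AFF1 was higher in MV4-11 NC with a ratio of 1.33, at percentile 85.0, although its promoter ratio was 0.634. AFF4 and BRD2 were the other genes above 1, with 1.03 and 1.02, where 27.1% of all genes were higher. The other 6 genes were lower, beside 72.8%, of which 4 by at least 1.5-fold or lost, beside 51.0%, and 0 were higher by as much, beside 14.7%. The line, the fusion and the library cannot be told apart in this comparison, and MV4-11 NC also serves as the control of the knockdown in its line.

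A list of 51 other genes of the same complexes was set beside the 9. In Kasumi-1, 45 had a promoter peak in each library, where 47.7% (control) and 45.3% (knockdown) of all genes had one. After knockdown 0 were lost and 0 gained, beside 6.84% and 1.61%. Promoter bases were higher at 30 and lower at 13, beside 48.9% and 49.9%, with a median ratio of 1.02 against 1.003. In MV4-11, 36 had one in NC and 29 after knockdown, beside 35.8% and 28.6%. Of the 36, 7 were lost and 25 lower, together 32, beside 78.1% of all genes. Higher were 4, beside 21.5%, and the median ratio was 0.780 against 0.828. Among all genes with a promoter peak in the MV4-11 control, 24.4% lost it, so that the list's share was not above the background. In the list, AFF2 and MLLT1 (grouped with the super elongation complex) and the elongation factor genes SUPT4H1 and TCEA1 lost their promoter peak. So did the KMT2A fusion partners EPS15 and SEPTIN6 and the kinase gene CDK7. MLLT1, whose product is closely related to that of MLLT3, went from 844 to 0 bases in MV4-11 and from 1964 to 1972 in Kasumi-1. CCNT1, which encodes a cyclin partner of CDK9, went from 1207 to 303 bases in MV4-11 and from 2079 to 2000 in Kasumi-1. CCNT2, which encodes another such cyclin, went from 802 to 773 in MV4-11 and from 2115 to 2272 in Kasumi-1. HEXIM1, which encodes an inhibitor of P-TEFb, went from 2074 to 2159 in MV4-11 and from 4082 to 3356 in Kasumi-1. Its relative HEXIM2 went from 951 to 962 and from 1697 to 1993.

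**Figure D5:**
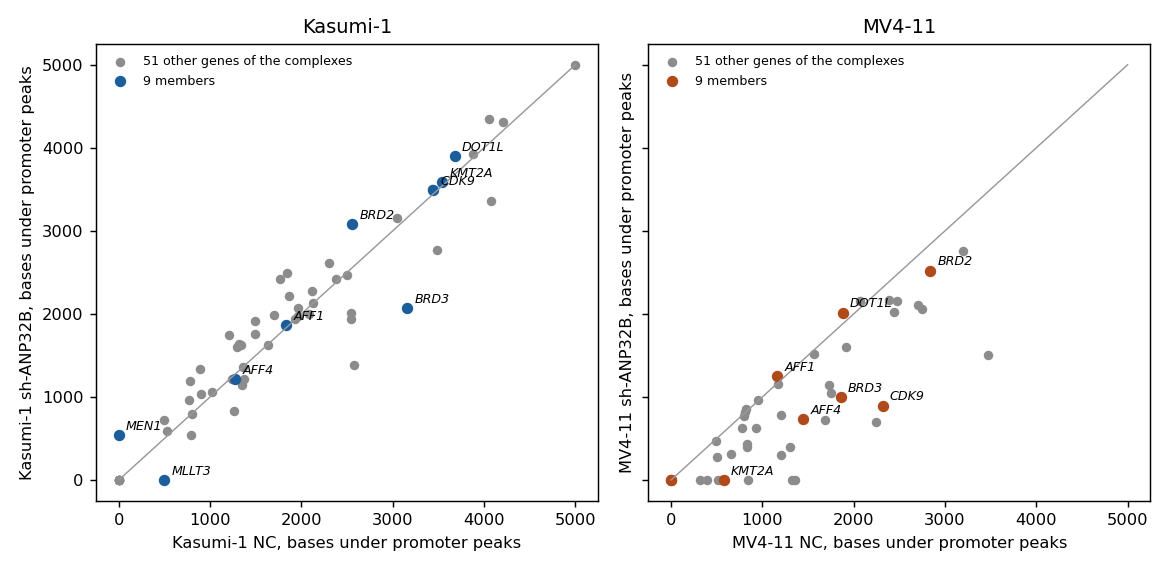
Bases under promoter peaks in NC (horizontal axis) and sh-ANP32B (vertical axis) for the 9 genes (coloured, named) and 51 other genes of the complexes (grey), in Kasumi-1 (left) and MV4-11 (right), with 1 library per axis and the line of equal values. In Kasumi-1 the points lie along the line, with BRD3 at 3157 and 2071 below it, and in MV4-11 CDK9 lies at 2319 and 893.

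Genes outside the list with the most similar promoter bases over the 4 libraries were found by the sum of absolute differences. The nearest to KMT2A was MYD88, with 3455 and 3563 bases in Kasumi-1, 766 and 0 in MV4-11 and a summed difference of 301 bases. The nearest to CDK9 was RASGRP2 (294 bases), to BRD2 H1-4 (194 bases), to AFF1 MTCH2 (82 bases), to DOT1L ICAM1 (385 bases) and to MEN1 ADAMTS9 (6 bases). KIF2C was nearest to BRD3, with 638 bases. AFF4 and MLLT3 each had 2 genes tied.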

How the data were processed

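H3K27ac CUT&Tag was performed on Kasumi-1 and MV4-11 cells, with 1 NC and 1 sh-ANP32B library per line (6 samples in all). The IgG samples (2) are not analysed here. According to the methods of the study, reads were aligned to hg38 with Bowtie2 v2.2.5, duplicates were removed with Picard, replicates were merged with samtools v1.15.1, and MACS2 (v2.2.7, q-value cutoff 0.01) called the peaks. The submitters' processing notes instead name Bowtie2 2.4.4 and MACS3 3.0. Whether IgG served as the control is not given in the sources used here. The deposited lists, one per library, give the start, end and length of each peak in bases and hold no height or p-value. The smallest peak width ranged from 275 bases (MV4-11 sh-ANP32B) to 357 bases (Kasumi-1 NC), so narrow peaks were not equally callable.

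Canonical starts of 20033 protein-coding genes were taken from GENCODE v44 on hg38. Overlaps were counted with Python 3.11.15, numpy 2.4.6 and pandas 2.3.3, checked on simulated data, and a peak counted with at least 1 base in a window. BRD2 was aligned with minimap2 to the alternate sequences of chromosome 6 that held a peak in any list (identity of at least 90%). Short alignments were dropped. Promoter sequences came from RefSeq (GRCh38.p14). No test was run because each group had 1 library. Named genes were the 9 members, list genes whose promoter peak was lost or gained, and the gene nearest to each member in promoter bases. CCNT1, CCNT2, HEXIM1, HEXIM2, CD79A, PTPRC and the promoter sequences of CDK9 and BRD3 were picked after values were seen. So was the AFF1 stretch from 20 to 50 kb. A named gene of the list is not reported here. The members and lists were chosen with earlier results of these data known. Alternatives covered the window, the flank, the choice of starts, joined or filtered peaks and the overlap rule.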

Additional observations from a re-analysis of the deposited data

Results flagged for a closer look

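Several genes had more peak bases after knockdown in Kasumi-1 and fewer in MV4-11. No test of that contrast could be made, since every group had a single library. The difference was not tested. In the promoter window these were KMT2A (39 and -576 bases), BRD2 (524 and -320) and CDK9 (50 and -1426), given as sh-ANP32B minus NC for Kasumi-1 and MV4-11. Over the gene plus 10 kb they were KMT2A (39 and -576 bases), AFF1 (838 and -2566), AFF4 (440 and -732), MEN1 (1003 and -2032), BRD2 (616 and -867) and CDK9 (468 and -2504). With no flank, KMT2A (-28) and AFF4 (-7) no longer had more bases after knockdown in Kasumi-1, and the MV4-11 difference of MEN1 was -83. With 50 kb to each side that of CDK9 was -18, and with only peaks of at least 1000 bases the Kasumi-1 difference of AFF4 was -63. The covered length of the whole lists moved the same way, from 32.7 to 33.7 Mb in Kasumi-1 and from 27.9 to 23.004 Mb in MV4-11, and its part in these values was not tested.

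BRD2 also had peaks on 4 alternate sequences of chromosome 6 that enter none of the counts over the 9 genes. Bases under peaks are given as NC and sh-ANP32B of Kasumi-1, then NC and sh-ANP32B of MV4-11. They were 5169, 5240, 3018 and 3310 on GL000251v2, and 4866, 4534, 3930 and 3608 on GL000253v2. On GL000254v2 they were 4792, 4255, 3531 and 2978, and on GL000255v2 4724, 4117, 3577 and 3542. The sequences were 95.7% to 98.2% identical to chromosome 6 over the aligned part.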

How the results depend on the processing

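No paired analysis was possible because each group had 1 library and the labels give no replicate numbers. Stricter alternatives by q-value were not run, since the lists hold none, and peaks of at least 1000 bases stood in. Of 192 recomputed counts, 165 stayed within 1.5 times the reported count and 27 did not. With only peaks of at least 1000 bases, promoter peaks were present at 3 genes in MV4-11 sh-ANP32B (reported 6), 0 were lost and 0 gained in Kasumi-1, 2 were lost in MV4-11, 1 gene was higher in MV4-11, 1 list gene lost and 3 gained a promoter peak in Kasumi-1, 0 peaks over the genes were lost or gained in Kasumi-1 and 0 gained in MV4-11, and the CDK9 promoter difference in MV4-11 became 5 bases. With 1000 bases to each side, 3 genes were higher in Kasumi-1 (reported 6) and 1 was higher in MV4-11 NC than in Kasumi-1 NC. With either narrower window, 1 was higher (reported 2) and 2 lost their peak (reported 1) in MV4-11. With every annotated start, 1 was higher in MV4-11. Over the genes, lower bases in Kasumi-1 (reported 3) were met at 5 with no flank and at 1 when peaks at most 1000 bases apart were joined, which also brought the gained Kasumi-1 peaks from 6 to 3. With 50 kb to each side, 14 MV4-11 peaks were lost (reported 9) and 7 gained (reported 1). An overlap of at least 50% gave 21 lost and 17 gained in MV4-11. Counting peaks within 1000 bases as shared gave 3 gained in Kasumi-1 and 0 in MV4-11, and 1 common smallest width and joining gap of 357 bases gave 0 gained in MV4-11. Of 144 single-gene promoter differences 7 changed sign, and of 108 over the genes 5 did: KMT2A (-28) and AFF4 (-7) in Kasumi-1 with no flank, AFF4 (-63) with only peaks of at least 1000 bases, and, in Kasumi-1 after joining, DOT1L (806) and BRD3 (313). The MV4-11 promoter difference at BRD3 was -109 with 1000 bases to each side (reported -858). The cause was not tested in any of these cases.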
